A study of Mus musculus with 6 samples.

Results

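The TAM system comprises the receptor tyrosine kinases Mertk, Axl and Tyro3 and their ligands Gas6 and protein S, the latter encoded by Pros1. Its mRNAs were measured in BV2, a mouse microglial cell line made immortal in culture, after 24 hr with IL-4 or PBS. All probes, other than controls, whose transcript record belonged to 1 of these 5 genes were taken, which gave 6 probes of 39429 on the array and 5 genes of 29752 genes or unnamed transcripts tested. Mertk, Axl, Gas6 and Pros1 had 1 probe each and Tyro3 had 2.

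Recombinant mouse IL-4 at 10 ng/ml was given to 3 samples and PBS to the other 3, both for 24 hr, with 1 single-colour Agilent array per sample. All cells were of the same line, plated on poly-L-lysine, and the labels name no genetic alteration. The sample description also mentions human blood, which contradicts all other labels and was not used. The sample labels call the control PBS where the series' design text calls it untreated, and nothing in them tells whether replicates were grown as separate cultures. The p-values therefore measure only the spread between these 6 samples, part or all of which may be technical. BV2 is a single transformed line, which limits it as a model of microglia.

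Gas6 and protein S are secreted proteins that need a vitamin K dependent modification to bind phosphatidylserine, the lipid that dying cells expose on their surface. They bridge that lipid to the TAM receptors on a phagocyte, which then engulfs the dying cell, a process called efferocytosis, and the same receptors restrain signalling by Toll-like and cytokine receptors. Gas6 activates Axl, Mertk and Tyro3, whereas protein S activates Mertk and Tyro3. Mertk and Axl are the TAM receptors best known in microglia and other macrophages. IL-4 drives the alternative activation of macrophages.

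None of the 5 genes passed the test between IL-4 and PBS. Pros1 and Mertk were lower on every IL-4 array than on every PBS array, by 1.46-fold and 1.33-fold in the mean, with intervals that lay below 0. Axl, Tyro3 and Gas6 had intervals that included 0. All 5 differences were smaller, or on the other side of 0, when the IL-4 arrays were set against the PBS array of their own slide. At a Benjamini-Hochberg adjusted p under 0.05 in limma's fit over all genes, 0 of 5 were called, beside 3.35% of all genes tested (0.807% higher and 2.54% lower with IL-4). At an unadjusted p under 0.05 the count was 2 of 5, beside 34.1%. Of the 5, 2 were lower on every IL-4 array, beside 19.8% of all genes, and 0 were higher on every IL-4 array, beside 18.1%.

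Per the scan records in the file headers, slide 1 carried the 3 IL-4 arrays together with PBS replicate 1, and slide 2 carried PBS replicates 2 and 3. Slide can therefore be told apart from treatment only through PBS replicate 1. With slide as a block, 0.0303% of all genes and 0 of 5 members were called (limma), and 0 of 5 members had an unadjusted p under 0.05. Of all probes, 87.9% to 98.0% passed the scanner software's test against background, with the lowest shares on IL-4 replicate 1 and PBS replicate 2, both in the first position of their slide. With 3 arrays a group, precision is limited throughout.

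The 250 bases upstream of the RefSeq start are shown for 3 members on assembly GRCm38.p6: Pros1 and Mertk, which had the largest differences, and Gas6, which alone lay above 0. They are printed 5′ to 3′ on the strand of the gene. Capitals mark matches on either strand to TTCNNNNGAA, the spacing that STAT6, the main transcription factor of the IL-4 receptor, prefers, to TTCNNNGAA, bound by other STAT factors, to the GC box GGGCGG, bound by Sp1, or to TGANTCA, bound by AP-1. The Pros1 stretch is chr16:62854057-62854306 on the plus strand, that of Mertk chr2:128698665-128698914 on the plus strand and that of Gas6 chr8:13494536-13494785 on the minus strand.
Pros1: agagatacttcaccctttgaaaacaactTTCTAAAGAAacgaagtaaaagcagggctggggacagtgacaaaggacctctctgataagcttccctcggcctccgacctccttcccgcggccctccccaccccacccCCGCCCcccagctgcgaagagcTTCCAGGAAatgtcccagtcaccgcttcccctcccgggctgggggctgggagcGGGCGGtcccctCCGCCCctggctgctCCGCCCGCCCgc
Mertk: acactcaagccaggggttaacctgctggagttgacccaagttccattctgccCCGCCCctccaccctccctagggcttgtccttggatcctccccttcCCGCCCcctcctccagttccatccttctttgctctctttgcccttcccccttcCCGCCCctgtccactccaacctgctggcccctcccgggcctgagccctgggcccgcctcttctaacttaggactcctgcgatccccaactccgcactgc
Gas6: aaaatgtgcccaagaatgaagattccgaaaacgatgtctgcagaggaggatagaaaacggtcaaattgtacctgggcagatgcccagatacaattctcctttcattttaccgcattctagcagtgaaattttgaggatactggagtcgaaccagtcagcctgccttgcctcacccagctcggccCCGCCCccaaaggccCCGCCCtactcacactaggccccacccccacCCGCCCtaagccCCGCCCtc

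The Pros1 stretch held 1 match to TTCNNNNGAA, starting 222 bases upstream of the start, and 1 to TTCNNNGAA, starting 92 bases upstream. No other member held either of them in its 250 bases. Among 32851 promoter stretches of the same length in the RefSeq table, 5.85% held the former and 7.02% the latter. The GC box occurred 5 times in Pros1, with the 2 matches nearest the start overlapping, 4 times in Gas6, 3 times each in Mertk and Tyro3 and 1 time in Axl. Of all stretches, 32.7% held it at least 1 time and 8.47% at least 3 times. None of the 5 held TGANTCA, found in 6.75% of all stretches, or the repeat that binds liver X receptors, known as DR4 and searched as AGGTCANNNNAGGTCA, found in 0.0152%. A match is a run of letters, not a binding site.

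Pros1 encodes protein S, which also serves as an anticoagulant cofactor in plasma. Its processed signal, the background-subtracted spot brightness, was 80.9, 99.3 and 96.7 on IL-4 replicates 1 to 3 and 126, 124 and 147 on PBS replicates 1 to 3. Every IL-4 array was below every PBS array. On the scale used for the test, log2 signal minus the array's own 75th percentile, the mean was -3.07 ± 0.13 with IL-4 and -2.52 ± 0.26 with PBS (SD, n = 3 each). The log2 fold change was -0.55 ± 0.15 (SE), with a 95% interval of -0.89 to -0.21, and it missed the threshold (adjusted p = 0.0624, limma). Among all genes tested, 4.93% had a lower log2 fold change. On the relative log2 scale PBS replicate 1 was the lowest of the PBS arrays, 0.43 below the mean of the others, whereas in processed signal PBS replicate 2 was. Against PBS replicate 1 alone the IL-4 arrays differed by -0.26, and with slide as a block the interval was -0.59 to 0.06 (adjusted p = 0.58, limma). Among the alternatives of scaling, probe filter, block and left-out arrays, Pros1 passed in 4. These were quantile normalization (adjusted p = 0.0489, limma), probes well above background on all arrays only (0.0427), the replicate block (0.039) and leaving out PBS replicate 1 (0.00358). Without that array the log2 fold change was -0.69, and slide and treatment could not be told apart.

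Gas6, the other ligand and the one that Axl depends on, did not follow Pros1. Its processed signal was 48.8, 66.6 and 58.6 on IL-4 replicates 1 to 3 and 68.3, 41.2 and 45.0 on PBS replicates 1 to 3. PBS replicate 1 had the highest signal of all 6 arrays, and PBS replicates 2 and 3 the lowest. On the relative log2 scale the mean was -3.74 ± 0.13 with IL-4 and -3.91 ± 0.20 with PBS (SD, n = 3 each), and the groups overlapped. The log2 fold change was 0.17 ± 0.13 (SE; 95% interval -0.14 to 0.47, adjusted p = 0.39, limma). On that scale PBS replicate 1 stood 0.34 above PBS replicates 2 and 3 in the mean, and against it the IL-4 arrays differed by -0.062, so the sign depended on which PBS arrays were used.

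Within an array the scaling cancels, so unequal change of the ligands can be read from the log2 signal of Gas6 minus that of Pros1. This difference was -0.73, -0.58 and -0.72 on IL-4 replicates 1 to 3 and -0.88, -1.59 and -1.70 on PBS replicates 1 to 3. The IL-4 arrays lay above all PBS arrays, but PBS replicate 1 was nearer to the IL-4 arrays than to the other PBS arrays. The group means differed by 0.72 over all 6 arrays and by 0.20 between the IL-4 arrays and PBS replicate 1. This measure was chosen after the values were seen and was not tested.

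**Figure D1:**
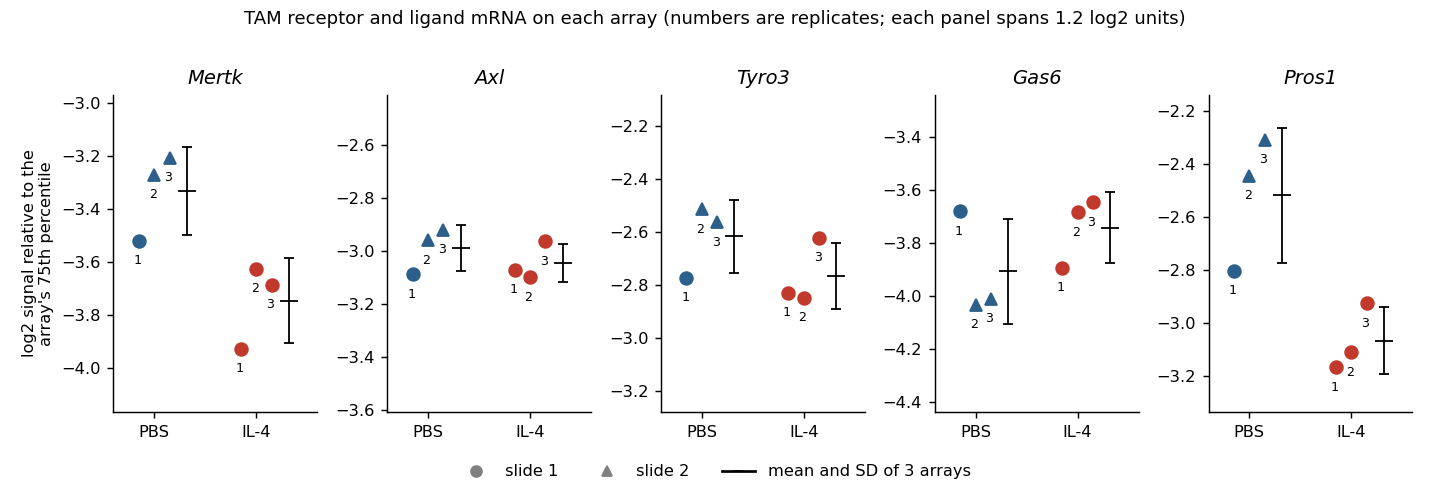
Each panel plots 1 gene, with log2 signal relative to the array's 75th percentile on the vertical axis, 3 PBS arrays in blue and 3 IL-4 arrays in red, circles for slide 1 and triangles for slide 2, and the mean and SD of each group in black. For Pros1 and Mertk every IL-4 point is below every PBS point and PBS replicate 1 is the PBS point nearest to them; for Gas6 PBS replicate 1 lies among the IL-4 points.

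Mertk encodes the TAM receptor that mediates much of the engulfment of dying cells by macrophages. Its processed signal was 47.8, 69.5 and 57.1 on IL-4 replicates 1 to 3 and 76.4, 69.9 and 78.6 on PBS replicates 1 to 3. IL-4 replicate 2 and PBS replicate 2 were nearly level before scaling. On the relative log2 scale the groups did not overlap, with a mean of -3.75 ± 0.16 for IL-4 and -3.33 ± 0.17 for PBS (SD, n = 3 each). The log2 fold change was -0.41 ± 0.13 (SE; 95% interval -0.72 to -0.11, adjusted p = 0.0776, limma), and 10.7% of all genes tested had a lower one. On the relative scale PBS replicate 1 was again the lowest PBS array, 0.28 below the mean of the others, and in processed signal PBS replicate 2 was. Against PBS replicate 1 the IL-4 arrays differed by -0.23, and with slide as a block the interval was -0.57 to 0.12 (adjusted p = 0.67, limma). Mertk passed in 1 of 21 alternatives, without PBS replicate 1, where slide and treatment could not be told apart, at -0.51 (adjusted p = 0.0133, limma). With normexp background correction its log2 fold change was -0.24 with 75th percentile scaling and -0.22 with quantile scaling.

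Axl encodes the TAM receptor that inflammatory stimuli such as interferons induce in macrophages. Its processed signal was 86.4, 99.95 and 94.1 on IL-4 replicates 1 to 3 and 103, 86.6 and 95.8 on PBS replicates 1 to 3. The groups overlapped, and Axl had the smallest spread of the 5 genes over the 6 arrays. The mean on the relative log2 scale was -3.04 ± 0.07 with IL-4 and -2.99 ± 0.09 with PBS (SD, n = 3 each). The log2 fold change was -0.055 ± 0.10 (SE; adjusted p = 0.72, limma), with a 95% interval of -0.29 to 0.18 in the fit without slide. It was 0.044 against PBS replicate 1, with an interval of -0.22 to 0.31 under the slide block.

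Tyro3, the TAM receptor best known from neurons, was read by a brighter and a dimmer probe of the same transcript. The brighter probe had processed signals of 102, 119 and 119 on IL-4 replicates 1 to 3 and 128, 118 and 123 on PBS replicates 1 to 3. The groups overlapped on the relative log2 scale, with means of -2.77 ± 0.13 for IL-4 and -2.62 ± 0.14 for PBS (SD, n = 3 each). The log2 fold change was -0.15 ± 0.12 (SE; 95% interval -0.42 to 0.12, adjusted p = 0.38, limma), and 0.0058 against PBS replicate 1. The dimmer probe had processed signals of 13.1, 25.9 and 23.0 with IL-4 and 24.9, 13.6 and 17.0 with PBS, in the same order. It was not well above background on IL-4 replicate 1 and PBS replicate 2, and so entered no test. Without a filter on dim probes its log2 fold change was 0.12 ± 0.24 (SE), on the other side of 0 from the brighter probe.

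**Figure D2:**
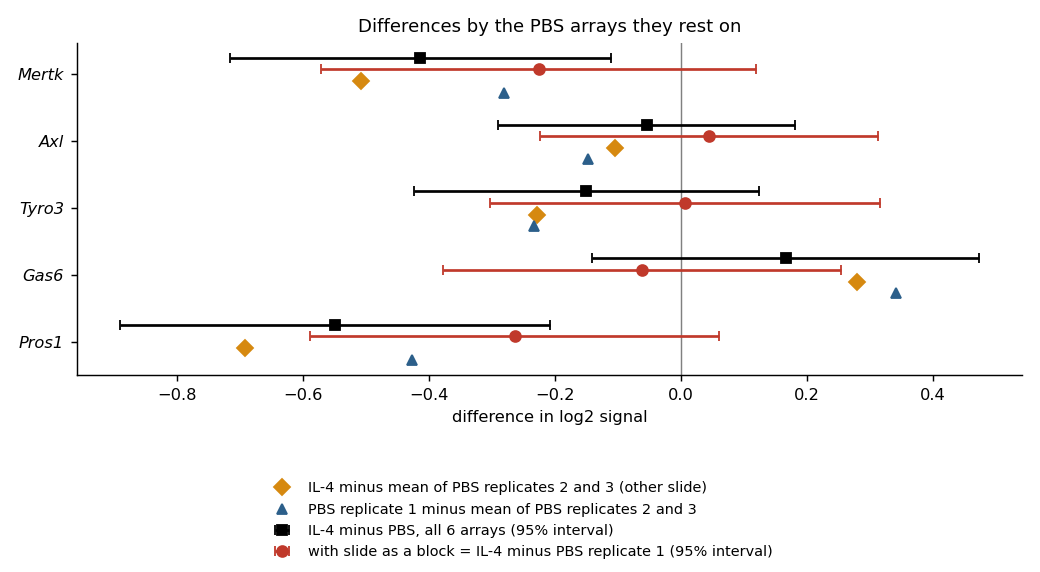
Differences in log2 signal for the 5 genes: IL-4 minus PBS over all 6 arrays (black squares, 95% interval), the same with slide as a block, which equals IL-4 minus PBS replicate 1 (red circles, 95% interval), IL-4 minus the mean of PBS replicates 2 and 3 (orange diamonds) and PBS replicate 1 minus that mean (blue triangles). With slide as a block every interval includes 0, and the blue triangle lies on the same side of 0 as the black square for all 5 genes.

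The signals of the 5 tested probes were low but measurable. They lay between 9.11 and 55.2 times the 95th percentile of the 153 negative control spots of the same array, all were well above background on all 6 arrays, none was marked as an outlier spot, and the scanner software's own error was 10.1% to 13.5% of the signal. Each member was read from 1 spot per array and probe. Among probes printed 10 times whose signal lay in the range of the members, 97 to 122 per array, copies differed by a median SD of 0.07 to 0.11 on the log2 scale.

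The members varied together over the arrays to unequal degrees. Over the 6 arrays, which share 2 slides, Pearson's r of the relative log2 signal was 0.95 between Pros1 and Mertk, 0.94 between Axl and Tyro3 and 0.86 between Pros1 and Tyro3. For Gas6 it was between -0.53 and -0.67 with the other 4. Among 8661 to 8662 other named genes with an SD of at least 0.2, those most like each member were Lins1, Zfp212 and Slc35b1 for Pros1, Zfp57, Cldn34b1 and Cmtm8 for Mertk, Dlg5, Prm1 and Dcpp1 for Axl, Asb18, Myh3 and Kcnj3 for Tyro3, and Cyp4f40, Prdm13 and Olfr703 for Gas6. The r of these genes ranged from 0.984 to 0.999. None of them passed the test, with adjusted p-values of 0.0658 to 0.55 (limma). An r above 0.95 was not particular to these genes: 1115 genes exceeded it with Pros1, 531 with Mertk, 90 with Gas6, 88 with Tyro3 and 16 with Axl. Each r rests on 6 arrays from 2 slides, and the cause of these counts was not tested.

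Genes known to respond to IL-4 were checked on the same arrays. Arg1, encoding arginase 1, a marker of alternative activation, rose by 2.02 ± 0.16 on the log2 scale (adjusted p = 0.011, limma) and was also called with slide as a block. Cish and Socs1, feedback inhibitors of cytokine signalling, rose by 1.07 ± 0.11 and 1.17 ± 0.14, but with the slide block neither passed (adjusted p = 0.0699 and 0.12, limma). Of the 7 genes in that check 3 rose and 0 fell, beside 0.807% higher and 2.54% lower over all genes tested. Mrc1 and Chil3, further markers of alternative activation, were at 0.50 and 0.61, and at 0.74 and 0.29 against PBS replicate 1. Il4ra and Stat6, the receptor and its transcription factor, were at 0.32 and -0.28, and at 0.03 and 0.006 against PBS replicate 1. These 4 did not pass.

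Genes that partner, process or transmit signals of the TAM receptors were followed as a list of 28, of which 27 were tested. Of these 1 rose and 1 fell, while background shares over all genes tested were 0.807% higher and 2.54% lower. The median log2 fold change of the list was -0.13, and that of all genes -0.05. Against PBS replicate 1 these medians were 0.011 and 0.006. The gene that rose was Socs1, which TAM receptors use to restrain cytokine signalling and which also stands in the IL-4 check; its call was lost with the slide block, as given above. The gene that fell was Dock1, an activator of Rac in engulfment, at -0.74 ± 0.12 (adjusted p = 0.0317, limma). Its difference from PBS replicate 1 was -0.54, and its adjusted p with the slide block was 0.18 (limma). The lowest value of the list, -1.001 ± 0.30, was that of Twist2, a transcription factor reported downstream of Axl, which did not pass (adjusted p = 0.0703, limma) and is named after its value was seen. Neither Adam10 nor Adam17, proteases that cleave TAM receptors from the surface, passed, at -0.08 ± 0.10 and -0.13 ± 0.12. Lgals3, whose product galectin-3 has been described as a Mertk ligand, was at 0.28 ± 0.11 (adjusted p = 0.12, limma).

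Both ligands need the carboxylase Ggcx and the vitamin K reductase Vkorc1. Ggcx was at -0.49 ± 0.22 and Vkorc1 at 0.14 ± 0.10, and neither passed (adjusted p = 0.16 and 0.35, limma). In the list of vitamin K dependent proteins and their carboxylation, 0 of 14 tested genes passed, beside 3.35% of all genes tested. The list median was -0.05, as was that of all genes. Mgp and Prrg3 had its largest log2 fold changes, 0.88 and 0.70 (adjusted p = 0.0583 and 0.0637, limma), and against PBS replicate 1 these were 0.33 and 0.25.

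Among the other receptors for phosphatidylserine and their bridging proteins, 0 of 24 tested genes passed, beside 3.35% of all genes tested. The list median was -0.03, and that of all genes -0.05. The largest differences were those of Gulp1, an engulfment adaptor, at 0.48 ± 0.17, and Cd300a, a lipid-binding inhibitory receptor, at 0.46 ± 0.19. Against PBS replicate 1 they were 0.14 and 0.04. Mfge8, a bridging protein that works through integrins and not the TAM receptors, was at -0.37 ± 0.16 (adjusted p = 0.14, limma) and -0.03 against PBS replicate 1.

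Transcription factors and receptors reported to regulate Mertk or Axl, with targets that indicate their activity, formed a list of 19, in which 4 fell, 0 rose and the median was -0.18, beside 2.54% lower, 0.807% higher and a median of -0.05 over all genes. Abca1, a cholesterol exporter and target of liver X receptors, fell, with a log2 fold change of -0.89, and so did Maf, a macrophage transcription factor, at -0.66 (adjusted p = 0.0298 and 0.0441, limma). Ifnar1 and Ifnar2, the subunits of the type I interferon receptor, through which Axl is induced, fell by 0.78 and 0.50 (adjusted p = 0.0334 and 0.0492, limma). Against PBS replicate 1 the differences were -0.62 for Abca1, -0.44 for Maf, -0.55 for Ifnar1 and -0.35 for Ifnar2, and none was called with slide as a block. The list median against that array was -0.047, and that of all genes 0.006. The liver X receptor genes Nr1h2 and Nr1h3, whose products raise Mertk, had values of 0.71 ± 0.20 and -0.35 ± 0.14, neither of which passed (adjusted p = 0.0638 and 0.12, limma). In 5 of the 6 fits that each left out 1 array, at most 3 genes of all tested were called. Without PBS replicate 1 the count was 12654, and there slide and treatment could not be told apart.

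**Figure D3:**
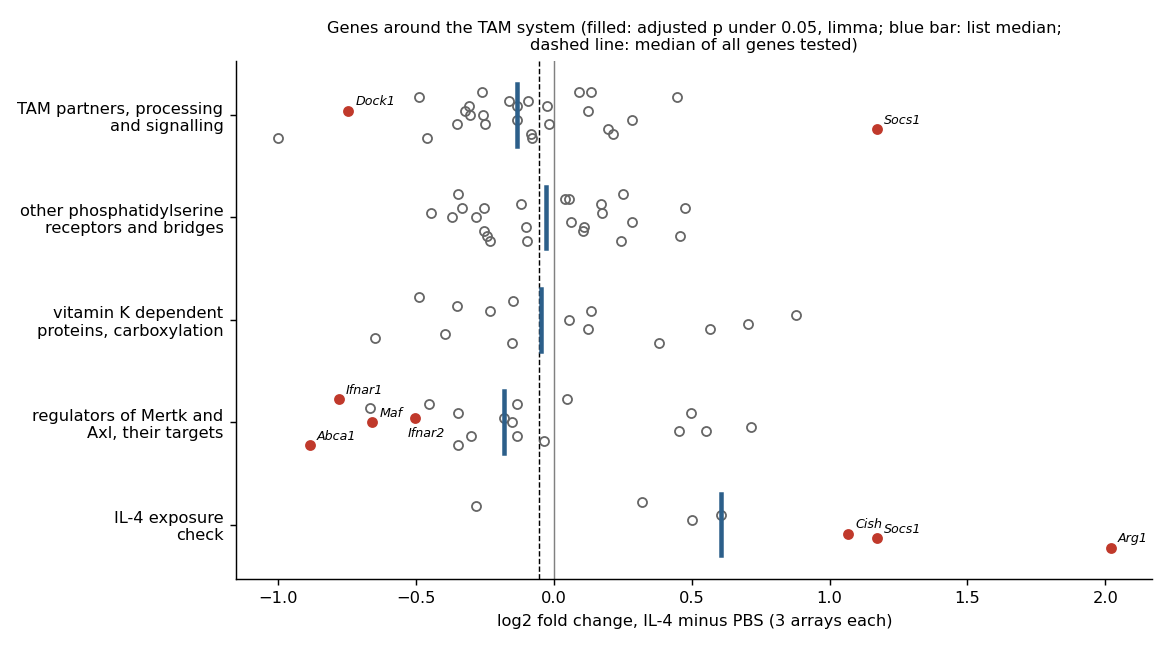
Log2 fold change, IL-4 minus PBS, of every tested gene in 5 lists around the TAM system, with called genes filled and named, list medians as blue bars and the median of all genes, -0.05, as a dashed line. In the IL-4 check 3 of 7 genes are filled, and Arg1 lies furthest to the right at 2.02, while in the vitamin K list and that of other phosphatidylserine receptors none is filled. Of all genes tested, 3.35% were called.

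Markers of the cell line were followed beside the members. Of 9 tested markers of microglia and macrophages, 5 were above the 75th percentile and Csf1r was the brightest. Aif1 and Tyrobp fell, 0 rose, 8 lay below 0 and the median was -0.42, while 2.54% of all genes were called lower and 16821 of 29752 lay below 0. With slide as a block neither Aif1 nor Tyrobp was called (adjusted p = 0.23 and 0.22, limma), and the median against PBS replicate 1 was -0.25. The summed signal of the 9 markers, in multiples of the 75th percentile, was 29.4 to 32.2 on the IL-4 arrays and 34.2 to 43.6 on the PBS arrays, with PBS replicate 1 the lowest PBS array. Its part in the differences of Pros1 and Mertk was not tested, and in such bulk RNA fewer cells with an mRNA and less of it per cell cannot be told apart. Markers of other cell types were read as well, although all samples were of 1 cell line. Their signals therefore do not show that such cells were present. For fibroblasts, 5 markers summed to 0.297 to 0.378 with IL-4 and 0.334 to 0.395 with PBS. For endothelium, 5 markers summed to 9.96 to 13.3 with IL-4 and 10.1 to 14.8 with PBS, and the brightest was Pecam1, which macrophages also express. The sums of the remaining lists were higher on every IL-4 array than on every PBS array: 3.43 to 3.85 against 1.89 to 3.28 for 5 oligodendrocyte markers, 1.69 to 1.80 against 0.789 to 1.39 for 4 T and B cell markers, 1.91 to 2.28 against 1.46 to 1.73 for 4 neuronal markers and 0.499 to 0.528 against 0.467 to 0.495 for 3 astrocyte markers. How these marker signals relate to the members' values was not tested. None of the markers of fibroblasts, endothelium, astrocytes, neurons, oligodendrocytes or T and B cells passed the test, beside 3.35% of all genes tested.

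**Figure D4:**
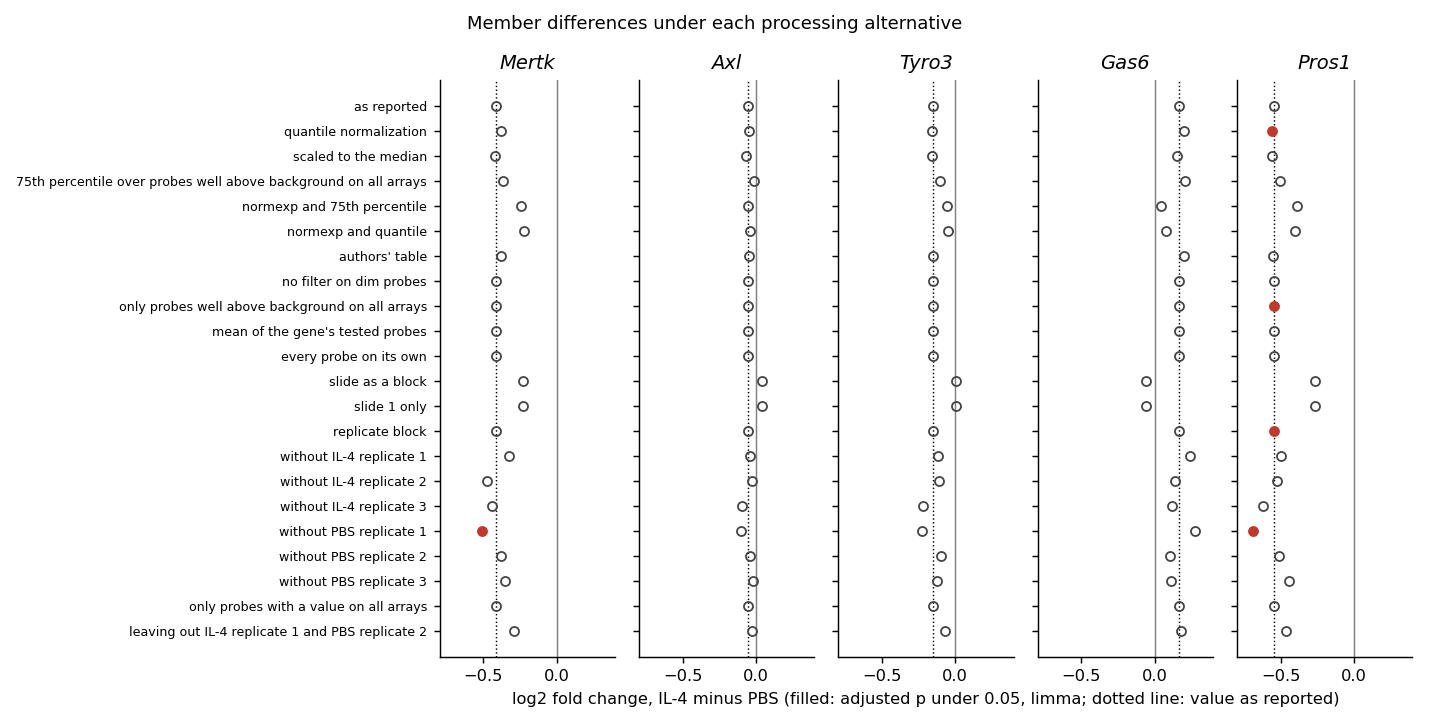
Log2 fold change of each gene as reported and under 21 alternatives, named on the vertical axis, with values at an adjusted p under 0.05 filled. Pros1 and Mertk lie below 0 throughout, and Axl, Tyro3 and Gas6 cross 0 with slide as a block or slide 1 only.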

How the data were processed

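The deposited scanner output gives spot intensity on a linear scale. Per the file headers it came from Agilent Feature Extraction 11.0.1.1, which subtracted background within arrays. A second file, the authors' value table, is on a log2 scale judging by its values, with a median of 6.92 in every column. How it was normalized was not given in the sources used here. Its columns correlated at 0.999 or above with the log2 signal, so its direction is settled.

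Outlier-flagged spots were left out, copies of a probe averaged, and the log2 processed signal set relative to each array's 75th percentile. A probe was tested where all arrays of either group had it well above background (35979 probes), and the brightest stood for its gene. The test was limma 3.58.1 (lmFit, eBayes; R 4.3.3) with no block. SE is that of the fit. Accessions matched to a RefSeq table of GRCm38.p6 named 27234 probes; the file headers give mm9 for the array design. In simulated data with 29488 genes and no slide difference, 98.5% of 2-fold changes were recovered. The noise came from a fit that removed slide, and all differences of the members were smaller than 2-fold. That share therefore does not tell how often changes of the members' size would be found.

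Members, lists and tests were chosen with earlier results of these data known. The rule for named genes took all members, called list genes (or the 2 with the largest change), the IL-4 check and the 3 genes most correlated with each member. Elmo2, Bglap and Cd68 had no matched probe. Timd4, F2, Slc1a3, Nefl, Lum and Ms4a1 were too dim to test. Some lists are not reported here. Probe sequences are not used here. The files hold the spot median and no mean signal, so normexp used the median. Alternatives were other scalings, normexp background correction, the authors' table, other probe filters, slide and replicate blocks, and leaving out arrays.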

Additional observations from a re-analysis of the deposited data

How the results depend on the processing

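Pros1 and Mertk stayed below 0 in 21 of 21 alternatives, from -0.69 to -0.26 and from -0.51 to -0.22. Pros1 passed in 4: quantile normalization (-0.56, 1 member called), only probes well above background on all arrays (-0.55, 1 member called), the replicate block (-0.55, adjusted p = 0.039, limma, 1 member called) and without PBS replicate 1, where Mertk passed too, so that 2 members were called (0 when any other single array was left out). Without PBS replicate 1 all IL-4 arrays were on slide 1 and all PBS arrays on slide 2, so slide and treatment could not be told apart. With slide as a block, and with slide 1 only, Axl (0.0435), Tyro3 (0.00579) and Gas6 (-0.0619) changed sign; both settings compare the IL-4 arrays with PBS replicate 1. Leaving out 1 array each gave -0.69 to -0.44 for Pros1, -0.51 to -0.32 for Mertk, -0.23 to -0.10 for Tyro3, -0.10 to -0.02 for Axl and 0.10 to 0.28 for Gas6. The count of genes called over all genes, 997 as reported, moved far more: 2637 with quantile normalization, 1733 scaled to the median, 523 with the 75th percentile taken over only those probes that passed background everywhere, 4058 with normexp and the 75th percentile, 3096 with normexp and quantile, 2299 in the authors' table, 15 with no filter on dim probes, 3808 with only probes well above background on all arrays, 605 averaging the probes of a gene, 9 with slide as a block, 1 on slide 1 only and 3770 with the replicate block. Leaving out 1 array gave 0 to 12654 (limma), the highest without PBS replicate 1. The 0 arose on leaving out IL-4 replicate 1 and again on leaving out PBS replicate 2, where 7325 and 6297 genes had an unadjusted p under 0.05. Leaving out IL-4 replicate 1 and PBS replicate 2 together, added after the data were seen, gave 0 (limma; 3660 at an unadjusted p under 0.05), with Pros1 at -0.46 and Mertk at -0.29. The causes were not tested. Of called genes, 24.1% were higher as reported, 50.1% with normexp and the 75th percentile and 48.1% with only probes well above background on all arrays. Same-numbered samples correlated at 0.08, -0.02 and 0.30 in their deviations from the group means, and IL-4 replicate 2 correlated best with another number, so the numbers were not taken as a pairing and the replicate block stands only as an alternative. The low signal of all 6 probes limits what small differences can be read, and for the dimmer Tyro3 probe the software's error reached 34.9% of the signal.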
